A study of Mus musculus with 15 samples.

Results

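The 10 genes described are those of bile acid synthesis, transport and FXR signalling in liver, read from the count table by symbol: Cyp7a1, Cyp7b1, Cyp8b1, Cyp27a1, Baat, Slc27a5, Slc10a1, Abcb11, Nr1h4 and Nr0b2. They are 10 of 37991 gene identifiers in the table, and all 10 were among the 14258 genes with enough counts to test. The livers came from female C57BL/6 mice fed chow ad libitum, and RNA of whole liver was sequenced from 15 animals in 3 groups of 5. Young WT mice were 90 d old and carried both copies of Rps6kb1, the gene of ribosomal S6 kinase 1 (S6K1). Old WT mice had the same genotype at 600 d. Old KO mice, bred like the WT mice from heterozygous parents, were 600 d old and lacked S6K1 in the whole body from conception, so the deletion was not limited to hepatocytes. There was no young KO group, so the effect of the deletion could be read in old mice only. The hour at which livers were taken is not given in the sources used here.

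Bile acids are made from cholesterol in hepatocytes. The classic pathway starts with CYP7A1, the alternative pathway runs through CYP27A1 and CYP7B1, and CYP8B1 sets how much of the product becomes cholic acid. Slc27a5 and Baat encode the enzymes that attach the product to CoA and then to an amino acid, Slc10a1 encodes NTCP, which takes bile salts up from portal blood, and Abcb11 encodes BSEP, the pump that secretes them into the canaliculus. Nr1h4 encodes FXR, the nuclear receptor for bile acids, which induces Abcb11 and Nr0b2; Nr0b2 encodes SHP, a repressor of Cyp7a1 and Cyp8b1. Several of these genes are also known to follow the time of day and feeding.

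Library totals ranged from 21801754 to 38065359 counts, so each value rested on many reads for most members and on fewest for Nr0b2, with 185 to 766 counts per library, and Cyp7b1. Expression is given as CPM, counts relative to the size of the library after scaling by the trimmed mean of M values (TMM). The targeted gene was checked first. Rps6kb1 measured 38.1, 33.3, 41.4, 38.1 and 40.6 CPM in the young WT livers, 35.8, 34.6, 37.3, 38.8 and 45.4 CPM in the old WT livers and 16.3, 15.8, 16.9, 15.2 and 20.8 CPM in the old KO livers. All 5 old KO livers lay below every WT liver, at -1.17 on the log2 scale against old WT (SE 0.0979, edgeR adjusted p = 8.54e-06), and counts at the gene were not at 0. Of the defining liver genes, the summed CPM of 10 hepatocyte markers ranged between 77580 and 129700 among young WT livers, between 89020 and 140800 among old WT livers and between 108900 and 145500 among old KO livers. The library labelled young WT 6 had the smallest total, and within young WT it also held the lowest value of Cyp7a1, Cyp8b1, Cyp27a1, Baat, Slc27a5, Slc10a1 and Nr1h4 and the highest of Abcb11, so counts of genes that changed are also given without it.

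Compared per length, as CPM per kilobase of exon, the members covered a wide range of levels. Slc10a1 was the most abundant in every group, at 501 ± 21.3 (SD, n = 5) in young WT, 393 ± 48.1 in old WT and 506 ± 54.2 in old KO. Slc27a5, at 351, 335 and 367, and Cyp8b1, at 376, 135 and 152, followed in young WT, and the SD of Cyp8b1 there, 115, was larger than the gap between them. Cyp27a1 (250, 167 and 229) and Baat (139, 142 and 162) came next. Abcb11 (98.9, 135 and 141), Cyp7a1 (95.6, 62.3 and 69.8) and Nr1h4 (67.2, 54.1 and 54.8) were lower, and the SD of Cyp7a1 in young WT, 57.7, spanned its neighbours in the order. Cyp7b1, at 9.95, 9.24 and 15.6, and Nr0b2, at 8.07, 11.8 and 20.0, were the least abundant and did not differ from each other beyond their SDs.

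**Figure D1:**
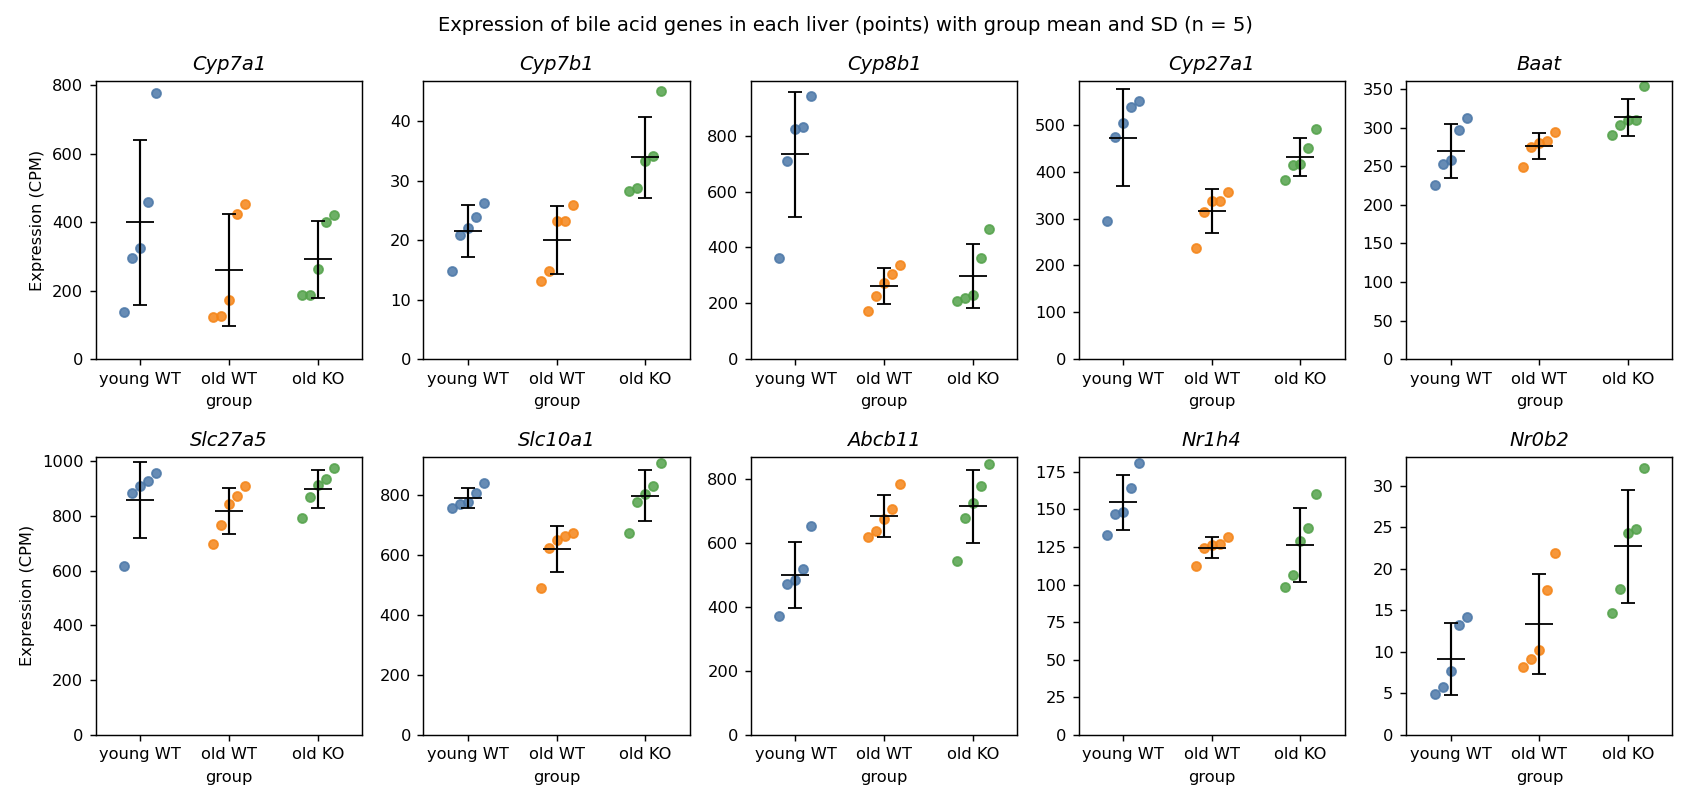
Expression of the 10 genes in each liver. The horizontal axis gives the group, the vertical axis CPM from 0 on its own scale for each gene, points are livers, and bars are the group mean and SD (n = 5). Cyp8b1 lies at 363 to 941 CPM in young WT and at 173 to 337 CPM in old WT, while Cyp7a1 spreads from 124 to 453 CPM within old WT alone.

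The comparison of old WT with young WT asks what changes with age in the WT liver. Cyp8b1, Cyp27a1 and Slc10a1 fell and Abcb11 rose, which is 4 of 10 members at an adjusted p under 0.05, while 18.8% of all genes tested passed. By direction, 1 of 10 rose, against 9.92% of all genes, and 3 of 10 fell, against 8.91%. At an unadjusted p under 0.05 there were 5 of 10, against 33% of all genes. Cyp8b1 fell the most, 2.79-fold, and the other changes were between 1.27-fold and 1.5-fold. The median log2 fold change of the 10 members was -0.21, against 0.0080 for all genes tested. In 3 of 10 members (Cyp8b1, Slc10a1 and Nr1h4) the groups did not overlap, against 11.4% of all genes. Without young WT 6, 5 members passed, the added gene being Nr1h4, and 22.8% of all genes passed. Libraries were also scaled to the geometric mean of the hepatocyte marker counts, a setting that moved the median of all genes by 0.40 on the log2 scale. With it 2 members passed (Cyp8b1 and Abcb11) with 22.7% of all genes, and 7 of 10 were above zero but 3 of 10 above that shifted median.

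The comparison of old KO with old WT asks what the deletion changes in old liver. No member passed edgeR's test after adjustment, 0 of 10, where 0.533% of all genes did (0.112% higher and 0.421% lower in old KO). At an unadjusted p under 0.05 there were 4 of 10, against 11.6% of all genes. DESeq2 called 2 of 10 members, Cyp7b1 and Slc10a1, and 2.17% of all genes. All 10 members had a mean higher in old KO, with a median log2 fold change of 0.18 against 0.00080 for all genes, but 9 of 10 were higher with upper quartile scaling, and when scaled to hepatocyte markers, which moved the median of all genes by -0.33, only 4 of 10 were above zero, while all 10 were above that shifted median. In 2 of 10 members (Cyp7b1 and Cyp27a1) the groups did not overlap, against 3.20% of all genes. The 10 hepatocyte markers were also all higher in old KO, with a median log2 fold change of 0.26 and 0 called, and the 10 macrophage and Kupffer cell markers were all lower, 5 of them called, with a summed CPM between 236 and 585 among old WT livers and between 144 and 217 among old KO livers. The transcript-length measure given below for each library had a median of 0.04 in old WT and -0.107 in old KO. Whether the shifts in cell markers or in this measure have a part in the members' values was not tested. From RNA of whole liver alone, fewer cells of a type cannot be told apart from less RNA per cell. By immunohistochemistry the authors reported less myeloid infiltration in livers of old KO than of old WT mice.

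A last contrast, of old KO with young WT, changes age and genotype together. Cyp7b1, Abcb11 and Nr0b2 rose and Cyp8b1 fell, 4 of 10 members, where 23.3% of all genes passed (12% higher and 11.3% lower in old KO). At an unadjusted p under 0.05 there were 6 of 10, against 36.8% of all genes. The groups did not overlap for Cyp7b1 and Nr0b2, 2 of 10, against 13.9% of all genes. Without young WT 6, 5 members passed, Nr1h4 again being added, and 26.6% of all genes passed. The 3 comparisons share groups with each other, so their values are given side by side and are not independent.

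**Figure D2:**
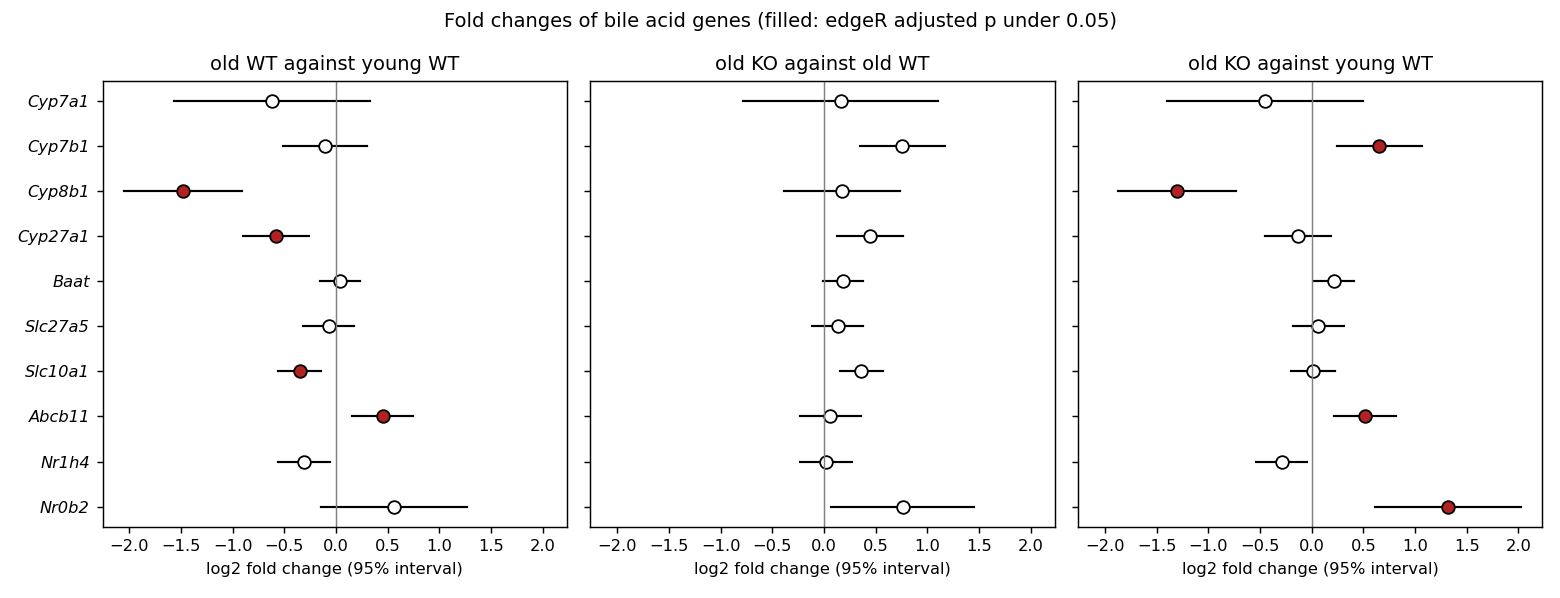
Log2 fold changes of the 10 genes (horizontal axis) with their 95% intervals in the 3 comparisons, by edgeR on 15 livers, with filled points at an adjusted p under 0.05. Cyp8b1 stands at -1.48 with age, and in old KO against old WT all 10 points lie above zero with none filled. When scaled to hepatocyte markers 6 of them turn below zero. That scaling moved the median of all genes by -0.33, and all 10 stay above the shifted median.

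Cyp7a1, the rate-limiting enzyme of the classic pathway, measured 460, 324, 296, 778 and 137 CPM in young WT, 126, 172, 453, 425 and 124 CPM in old WT, and 400, 187, 263, 420 and 187 CPM in old KO. The groups overlapped throughout, with lowest and highest livers of 137 and 778 CPM in young WT, 124 and 453 CPM in old WT and 187 and 420 CPM in old KO. Its log2 fold change with age was -0.62, with a 95% interval of -1.56 to 0.33 (edgeR adjusted p = 0.354), and it ranged from -0.92 without old WT 5 to -0.24 without young WT 4. Old KO differed from old WT by 0.16, with an interval of -0.78 to 1.11 (edgeR adjusted p = 0.937).

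Cyp8b1, whose product steers synthesis toward cholic acid, measured 708, 831, 826, 941 and 363 CPM in young WT and 272, 173, 337, 306 and 226 CPM in old WT. All old WT livers lay below all young WT livers, although young WT 6, at 363 CPM, was close to the highest old liver. Its change was -1.48 on the log2 scale (SE 0.271, edgeR adjusted p = 0.00231). It stayed between -1.65 and -1.36 when each library was left out in turn, and it passed the test in all 15 of those fits. Old KO livers held 229, 363, 209, 467 and 218 CPM, a range that covered that of old WT except for its lowest value, and the difference was 0.18 (95% interval -0.38 to 0.74, edgeR adjusted p = 0.861). Against young WT, old KO was lower by a log2 fold change of -1.30 (edgeR adjusted p = 0.00329).

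Cyp27a1, the mitochondrial sterol hydroxylase of the alternative pathway, measured 552, 539, 505, 475 and 295 CPM in young WT and 236, 357, 337, 337 and 314 CPM in old WT. The 4 other young livers exceeded every old WT liver, and young WT 6 lay within the old WT range. The gene fell with age by 0.58 on the log2 scale (SE 0.15, edgeR adjusted p = 0.0149). Old KO livers, at 414, 418, 383, 492 and 452 CPM, all lay above the old WT livers, yet the difference of 0.45 did not pass across all genes (95% interval 0.13 to 0.77, edgeR adjusted p = 0.223). Scaled to hepatocyte markers, the age change was -0.15 (edgeR adjusted p = 0.512), or -0.55 relative to the shifted median of all genes.

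Cyp7b1, the oxysterol hydroxylase that acts after CYP27A1, was similar in young WT (20.8, 14.7, 26.3, 22.1 and 23.8 CPM) and old WT (14.9, 25.9, 23.2, 13.1 and 23.1 CPM). In old KO it measured 28.2, 28.8, 33.2, 34.0 and 45.1 CPM, above every WT liver of either age. Against old WT the log2 fold change was 0.76 (SE 0.194, 95% interval 0.35 to 1.17, edgeR adjusted p = 0.098; DESeq2 adjusted p = 0.0134). Against young WT it rose by 0.65 (edgeR adjusted p = 0.0235), and this call was lost in 3 of 15 fits, without young WT 1, young WT 2 or old KO 6 (edgeR adjusted p = 0.0502, 0.0576 and 0.0591). It was also lost when scaled to hepatocyte markers, at 0.70 (edgeR adjusted p = 0.119), a setting that called 5.74% of all genes in this comparison.

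The conjugating enzymes passed in none of the 3 comparisons with all libraries. Baat, the amino acid transferase, measured 253, 259, 297, 313 and 226 CPM in young WT, 283, 280, 294, 249 and 275 CPM in old WT and 304, 291, 310, 354 and 310 CPM in old KO. Its old KO livers were at the upper end, 4 of 5 above every old WT liver, with differences of 0.035 with age, 0.18 with genotype and 0.22 between old KO and young WT (edgeR adjusted p = 0.820, 0.462 and 0.0946), the last of which passed without young WT 4 (0.27, edgeR adjusted p = 0.0493). Slc27a5, the bile acid CoA ligase, measured 883, 911, 930, 956 and 616 CPM in young WT, 766, 845, 909, 697 and 874 CPM in old WT and 793, 937, 914, 977 and 870 CPM in old KO. The 3 groups overlapped, with young WT 6 lowest of all, and the age difference of -0.070 had a 95% interval of -0.32 to 0.18 (edgeR adjusted p = 0.711).

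Slc10a1, the uptake transporter, measured 772, 841, 809, 778 and 757 CPM in young WT and 624, 663, 651, 489 and 676 CPM in old WT. Each old WT liver lay below each young one, and old WT 7 was the lowest. The gene fell with age by 0.35 on the log2 scale (SE 0.0994, edgeR adjusted p = 0.0231). This call was lost without young WT 2 or young WT 3 (edgeR adjusted p = 0.0561 and 0.0503), and scaled to hepatocyte markers the value was 0.063, that is -0.34 relative to the median of all genes. Old KO livers, at 830, 908, 778, 803 and 673 CPM, covered the young range. The difference from old WT was 0.36 (95% interval 0.15 to 0.57, edgeR adjusted p = 0.128; DESeq2 adjusted p = 0.013), and that from young WT was 0.013 (95% interval -0.20 to 0.22).

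Abcb11, the canalicular export pump, moved the other way with age. It measured 370, 470, 485, 518 and 653 CPM in young WT and 674, 784, 707, 635 and 618 CPM in old WT, so that only young WT 6 reached the old range. The log2 fold change was 0.45 (SE 0.140, edgeR adjusted p = 0.0337), and the call was lost in 7 of 15 fits that left out a library, the adjusted p ranging from 0.00644 to 0.0851. The libraries whose loss ended it were young WT 1, 2, 3 and 4 and old WT 1, 4 and 5. Old KO livers measured 845, 724, 677, 779 and 543 CPM, spanning the old WT values, with a difference of 0.062 (95% interval -0.23 to 0.36, edgeR adjusted p = 0.921). Against young WT the rise was 0.52 (edgeR adjusted p = 0.0154). Scaled to hepatocyte markers, where 5.74% of all genes passed, it was 0.51 and no longer passed (edgeR adjusted p = 0.253). Exons of Abcb11 overlap an antisense transcript (Gm13613) and a pseudogene (Gm13614) on the other strand, and the strand setting of the counting is not stated, so reads from these cannot be told apart; Gm13613 averaged 1.23 CPM or less in each group.

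The ratio of Abcb11 to Slc10a1 counts compares export with uptake within a liver. Its log2 value averaged -0.69 ± 0.317 (SD, n = 5) in young WT, 0.14 ± 0.188 in old WT and -0.17 ± 0.157 in old KO. All 5 old WT livers, from -0.13 to 0.38, lay above all young WT livers, from -1.06 to -0.21, and the difference of 0.83 had an exact two-sided permutation p of 0.00794, the smallest that 252 assignments allow, which was 0.0714 after Benjamini-Hochberg adjustment over 9 ratio tests. Old KO lay between the WT groups, 0.32 below old WT and 0.52 above young WT (exact permutation p = 0.0238 and adjusted p = 0.0714 for each). Without young WT 6 the age difference was 0.95 and that of old KO against young WT 0.64, each with an adjusted permutation p of 0.0357. With all libraries the age difference already had the smallest p possible, so whether it passed depended on the other ratio tests. The log2 ratio of Cyp8b1 to Cyp7a1 was 1.03 ± 0.544 in young WT, 0.22 ± 0.733 in old WT and 0.039 ± 0.658 in old KO. Its age difference of -0.81 did not pass (exact permutation p = 0.0794, adjusted p = 0.143), nor did the -0.99 between old KO and young WT (exact permutation p = 0.0397, adjusted p = 0.0893). The ratio of Cyp7a1 to Cyp7b1, classic against alternative pathway, gave exact permutation p-values from 0.111 to 0.444.

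**Figure D3:**
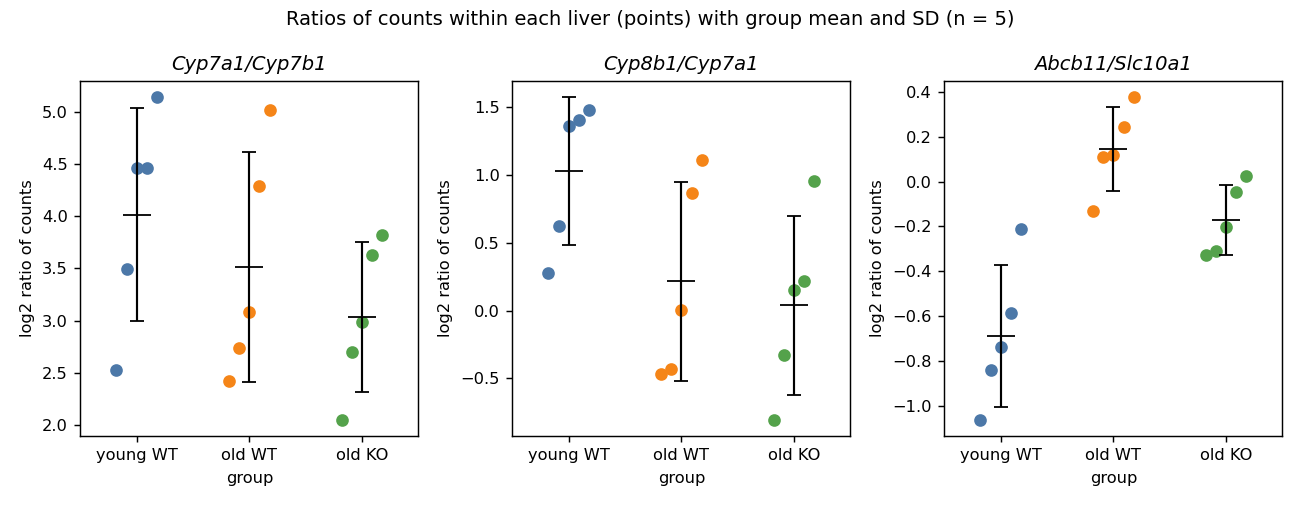
Log2 ratios of counts within each liver for 3 gene pairs. The horizontal axis gives the group, the vertical axis the log2 ratio, and bars show mean and SD (n = 5). For Abcb11/Slc10a1 all old WT livers (-0.13 to 0.38) lie above all young WT livers (-1.06 to -0.21), with old KO between.

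Nr1h4, which encodes FXR, measured 181, 164, 147, 148 and 133 CPM in young WT and 127, 113, 125, 126 and 132 CPM in old WT. Every old WT liver was below every young one, although by a narrow margin at young WT 6. The log2 fold change of -0.31 (SE 0.118) did not pass across all genes (95% interval -0.56 to -0.062, edgeR adjusted p = 0.0748); it passed with DESeq2 (adjusted p = 0.0495) and in an edgeR fit of the 10 WT libraries alone (adjusted p = 0.0342), and without young WT 6 or old KO 6 (edgeR adjusted p = 0.0448 and 0.0445). Scaled to hepatocyte markers it turned to 0.093 (edgeR adjusted p = 0.733), or -0.31 relative to the shifted median of all genes. Old KO livers, at 106, 137, 129, 98.4 and 160 CPM, scattered on both sides of old WT, with a difference of 0.020 (95% interval -0.23 to 0.27, edgeR adjusted p = 0.976).

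Nr0b2, which encodes SHP and is induced by FXR, was low and variable. It measured 4.87, 7.72, 14.2, 5.69 and 13.2 CPM in young WT, 21.9, 10.2, 8.17, 9.16 and 17.5 CPM in old WT and 24.3, 17.5, 24.8, 32.1 and 14.6 CPM in old KO. The lowest old KO liver was just above the highest young WT liver, and old WT overlapped both. Nr0b2 rose by 1.32 on the log2 scale between young WT and old KO (SE 0.334, edgeR adjusted p = 0.0104), a call kept in all 15 fits that left out a library. The difference was 0.56 between old and young WT (95% interval -0.15 to 1.26, edgeR adjusted p = 0.256) and 0.76 between old KO and old WT (95% interval 0.066 to 1.46, edgeR adjusted p = 0.372).

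Across livers of the same group, 6 pairs of genes were compared after subtracting group means, over 15 livers with shuffles inside groups. Livers with more Nr1h4 held less Abcb11. Pearson's r was -0.863 (permutation p = 0.00011, adjusted p = 0.00066) and Spearman's rho was -0.836 (permutation p = 0.00035, adjusted p = 0.0021). Without the 2 livers farthest from the median of Nr1h4, r was -0.897, and with each liver left out it stayed between -0.923 and -0.806. In old KO, for example, the liver with the highest Nr1h4 (160 CPM) had the lowest Abcb11 (543 CPM), and in young WT the liver with the lowest Nr1h4 (133 CPM) had the highest Abcb11 (653 CPM). The sum of exons is 5046 bases for Abcb11 and 2303 for Nr1h4, and a measure of each library, the median log2 deviation of transcripts over 4000 bases minus that of transcripts under 1500 bases, ran from -0.151 to 0.137. Within groups it had an r of 0.550 with Abcb11 and -0.394 with Nr1h4. With the other members r ran from -0.625 (Slc27a5) to -0.059 (Slc10a1), apart from 0.3 for Nr0b2. The measure's median was 0.0517 in young WT, 0.04 in old WT and -0.107 in old KO. Its part in the relation and in the differences between groups was not tested.

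The other pairs did not pass after adjustment. SHP represses Cyp7a1 in the textbook account, and Nr0b2 had an r of -0.525 with Cyp7a1 (rho -0.493, permutation p = 0.0842 and 0.108, adjusted p = 0.126 and 0.162) and of -0.156 with Cyp8b1 (rho -0.207, permutation p = 0.627 and 0.486, adjusted p = 0.627 and 0.486). Nr1h4 and Nr0b2 gave r = -0.515 and rho = -0.450 (permutation p = 0.0398 and 0.0937, adjusted p = 0.0795 and 0.162). Cyp7a1 and Cyp8b1 gave r = 0.612 and rho = 0.625 (permutation p = 0.0257 and 0.0208, adjusted p = 0.0772 and 0.0625), and r fell to 0.403 without the 2 farthest livers. Cyp7a1 and Dbp, a clock output factor averaging 1.22 CPM or less in each group, gave r = -0.292 and rho = -0.214 (permutation p = 0.256 and 0.448, adjusted p = 0.307 and 0.486).

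**Figure D4:**
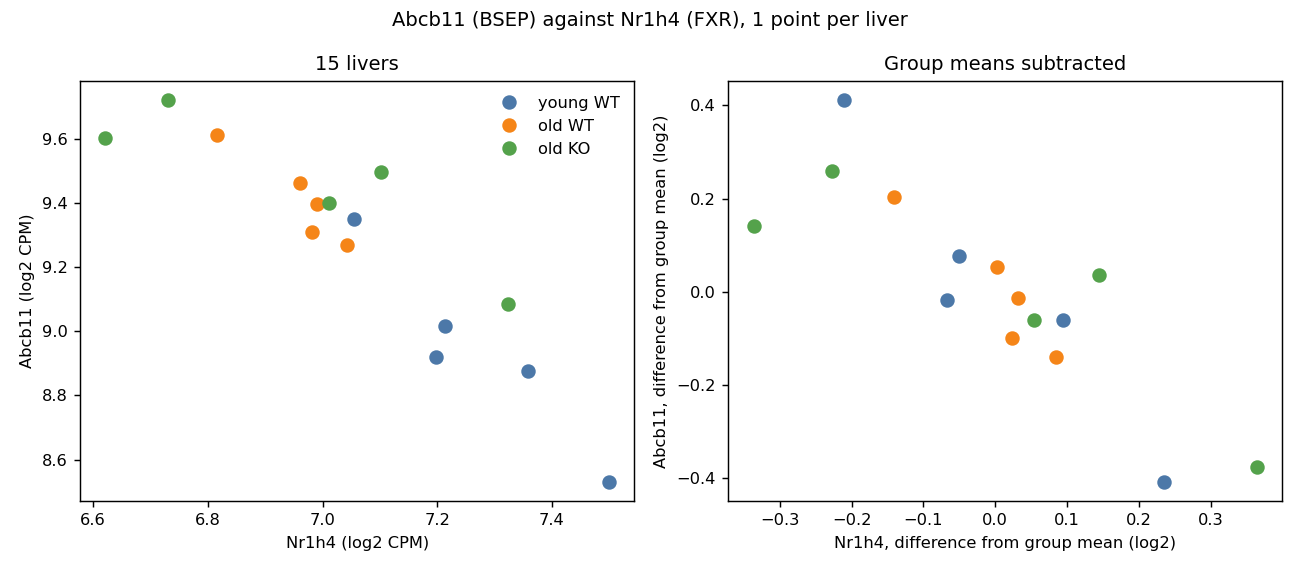
Abcb11 against Nr1h4 in 15 livers, in log2 CPM (left) and after subtracting each group's mean (right), with 1 point per liver coloured by group. In the right panel livers with more Nr1h4 have less Abcb11, with a Pearson's r of -0.863 over 15 livers.

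Promoter sequences are shown for the 4 members on which these results turn, 250 bases up to the transcription start, from RefSeq on GRCm38.p6 and read 5′ to 3′ on the gene's strand. Capitals mark the nuclear receptor hexamer AGGTCA, on either strand, and the E-box CACGTG. RefSeq windows were at hand for 6 of 10 members (7 windows, since Slc10a1 had more than 1 start); Cyp7a1, Cyp7b1, Baat and Slc27a5 had none. The windows shown are chr9:121916306-121916555, minus strand (Cyp8b1, the largest age change), chr2:69342617-69342866, minus strand, and chr10:89506659-89506908, minus strand (Abcb11 and Nr1h4, the pair that varied in opposite directions), and chr4:133553126-133553375, plus strand (Nr0b2, the FXR target).
Cyp8b1: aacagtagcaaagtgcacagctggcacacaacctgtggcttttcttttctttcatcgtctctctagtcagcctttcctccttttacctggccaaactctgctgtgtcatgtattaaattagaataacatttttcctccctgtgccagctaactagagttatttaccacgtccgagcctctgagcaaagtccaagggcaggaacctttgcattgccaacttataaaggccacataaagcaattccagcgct
Abcb11: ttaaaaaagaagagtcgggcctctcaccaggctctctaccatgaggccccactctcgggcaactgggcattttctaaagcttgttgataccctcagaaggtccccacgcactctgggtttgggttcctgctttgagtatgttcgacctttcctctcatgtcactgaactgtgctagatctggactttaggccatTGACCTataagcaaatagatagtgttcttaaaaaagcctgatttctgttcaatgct
Nr1h4: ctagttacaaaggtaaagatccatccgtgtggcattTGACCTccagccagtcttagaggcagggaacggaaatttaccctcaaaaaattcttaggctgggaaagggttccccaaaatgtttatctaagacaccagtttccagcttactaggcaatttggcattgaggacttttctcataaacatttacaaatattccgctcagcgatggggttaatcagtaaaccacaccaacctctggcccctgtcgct
Nr0b2: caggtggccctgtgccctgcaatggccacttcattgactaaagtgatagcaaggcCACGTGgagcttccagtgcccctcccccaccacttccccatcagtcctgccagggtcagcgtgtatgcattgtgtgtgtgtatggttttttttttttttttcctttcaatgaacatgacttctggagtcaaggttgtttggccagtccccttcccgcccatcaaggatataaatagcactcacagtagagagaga
The hexamer lay at bases -56 to -51 of Abcb11 and -214 to -209 of Nr1h4, both as TGACCT, and also in a Slc10a1 window as AGGTCA at -87 to -82. It was present in 14% of all 32851 promoter windows. The E-box lay at -195 to -190 of Nr0b2 and was present in 6.02% of windows. Neither was found in the windows of Cyp8b1 and Cyp27a1. As exact letters, 3 more patterns, searched on both strands, were in no member window. These were the FXR inverted repeat, the hexamer and its reverse complement around any 1 base (0.00609% of all windows), the extended LRH-1 site CAAGGTCA, which also contains the hexamer (1.33%), and the D-box TTATGTAA (0.819%). A match is a run of letters, and binding was not measured.

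In the older build of the mapping, NCBIM37 (mm9), Cyp8b1 spans chr9:121823474-121825423 on the minus strand, Abcb11 chr2:69076339-69180671 on the minus strand, Nr1h4 chr10:88916979-88996330 on the minus strand and Nr0b2 chr4:133109291-133112451 on the plus strand, each a protein-coding gene.

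Other enzymes of synthesis and conjugation numbered 15, of which 14 had enough counts. With age, 2 rose and 1 fell, where 9.92% of all genes rose and 8.91% fell. The list's median log2 fold change was -0.12. Cyp39a1, an oxysterol hydroxylase, fell from 150 to 53.6 CPM, by 1.49 on the log2 scale (SE 0.340, edgeR adjusted p = 0.00753). Akr1d1, which reduces the steroid ring, rose by 0.42 and Cyp46a1, a cholesterol hydroxylase at 4.54 CPM in old WT, by 1.22 (edgeR adjusted p = 0.0431 and 0.00597). Genotype called 0 of 14 in old mice, where it called 0.533% of all genes. Between old KO and young WT, 3 rose and 4 fell, where 12% of all genes rose and 11.3% fell. Cyp2c70, which makes muricholic acids in mice, rose by 1.59 (174, 278 and 525 CPM in young WT, old WT and old KO, edgeR adjusted p = 0.002), and the peroxisomal genes Hsd17b4, Abcd3 and Acot8 and the fatty acid CoA ligase gene Slc27a2 fell by 0.52 to 0.68.

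Of 16 other transport genes, 15 were tested. With age 3 rose and 2 fell, where 9.92% of all genes rose and 8.91% fell. None passed by genotype, where 0.533% of all genes did. Between old KO and young WT 2 rose and 4 fell, where 12% of all genes rose and 11.3% fell. The basolateral exporter Abcc4 rose with age from 5.06 to 17.7 CPM (log2 fold change 1.81, edgeR adjusted p = 0.00027). Abcb1a rose by 1.25 and Slc10a2, the sodium-dependent transporter of the ileum and bile ducts, by 1.14 (edgeR adjusted p = 0.00451 and 0.00636). Slco1a1, an organic anion uptake transporter, fell from 64.2 to 18.3 CPM and was 8.96 CPM in old KO, a log2 fold change of -1.81 with age and -2.84 between old KO and young WT (edgeR adjusted p = 0.0124 and 0.000934). Abcc3 fell by 0.43 (edgeR adjusted p = 0.0255). Abcb4, the phospholipid flippase of bile, fell from 625 CPM in young WT livers to 382 CPM in old KO livers, by 0.71 on the log2 scale (edgeR adjusted p = 0.00664). Slc51a was at 1 count over all 15 libraries.

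Of 20 regulators, 19 were matched and 16 tested, of which 2 rose and 1 fell with age. Of all genes, 9.92% rose and 8.91% fell. With age Fgfr4, the FGF receptor that represses Cyp7a1, rose by 0.65 (28.5 to 44.8 CPM, edgeR adjusted p = 0.000254) and Cebpa, a hepatocyte transcription factor, by 0.33 (edgeR adjusted p = 0.0453), while Insig2, the ER retention factor of SREBP, fell from 1061 to 396 CPM, by 1.42 (edgeR adjusted p = 0.00303). Fgfr4, Cebpa and Insig2 also passed between old KO and young WT, a contrast that shares the young livers and in which 23.3% of all genes passed. By genotype 0 of 16 passed, where 0.533% of all genes did. Partners of FXR and SHP were among those that did not pass with age: Rxra (-0.13), Hnf4a (-0.086), Nr5a2, which encodes LRH-1 (0.27), and Klb, the coreceptor of FGFR4 (-0.046). Fgf15, made in the ileum, had 0 counts in each of the 15 livers. Of 15 clock genes, 3 rose (Nfil3, Npas2 and Cry1) and 2 fell (Ciart and Nr1d1) with age, against 9.92% and 8.91% of all genes. Their log2 fold changes were 1.08, 0.99, 0.69, -2.39 and -1.46. Their part in the age changes of the members was not tested, and genotype called 0 of 15.

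**Figure D5:**
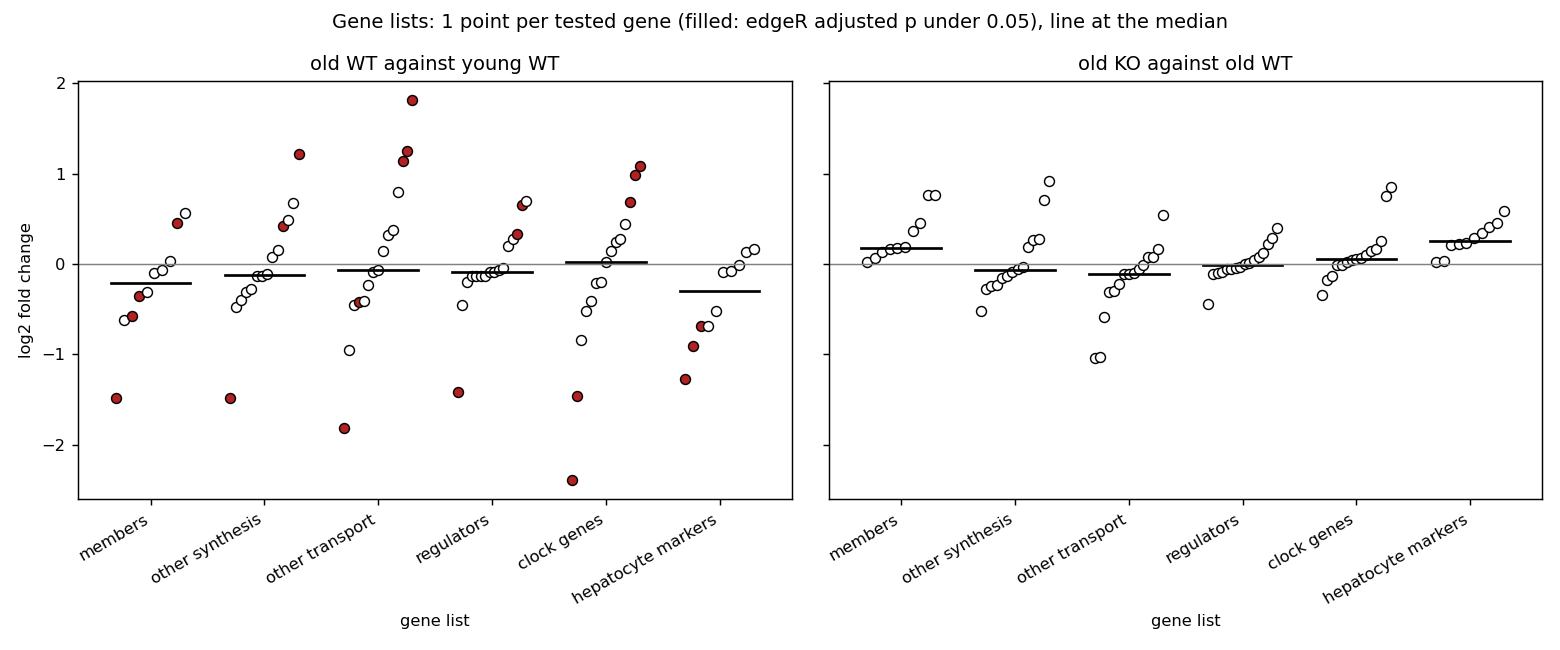
Log2 fold changes (vertical axis) of the tested genes of 6 lists (horizontal axis), 1 point per gene, filled at an edgeR adjusted p under 0.05, with the line at the list's median. With age the 10 members and the 3 further bile acid lists hold called genes in both directions, and between old KO and old WT none of the lists shown has a called gene.

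Markers of other cell types were read beside the age changes, in which 9.92% of all genes rose and 8.91% fell. With age, 3 of 10 hepatocyte markers fell (Apoa1, Cps1 and Tdo2), 8 of 10 had lower means, and the list's median was -0.30; 3 of 6 pericentral markers (Glul, Oat and Slc1a2), 2 of 6 periportal markers (Cyp2f2 and Arg1) and 2 of 5 endothelial markers (Stab2 and Lyve1) fell. Among the markers of other cells, 3 of 6 of B and plasma cells, 2 of 7 of T cells, 2 of 9 of bile duct cells, 1 of 6 of stellate cells and fibroblasts and 1 of 10 of macrophages rose. Summed bile duct markers reached at most 67.6 CPM among young WT livers, 131 CPM among old WT livers and 119 CPM among old KO livers, from lowest values of 52.3, 56.5 and 59.7 CPM. Of 5 intestinal markers, 2 (Fabp6 and Cdx2) were at 0 in each group, and the others had counts. In young WT, old WT and old KO, Fabp2 averaged 92.9, 78.9 and 54.3 CPM and Lgals4 37.8, 29.6 and 30.45 CPM. Vil1 averaged 0.37 CPM or less in each group. The part of cell makeup in the members' changes was not tested.

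For each member, the genes with the most similar profile over the 15 livers were read from 12115 candidates by Pearson's r of log2 CPM, as a description. Abcb11 was followed most closely by Pion (r = 0.987), Il13ra1 (0.949) and Apol7a (0.941), and within groups Pion kept an r of 0.983. Nr1h4 went with Cyp4f17 (0.936), Oplah (0.928) and Cops6 (0.913). Cyp8b1 went with Susd4 (0.945), Gm15622 (0.934) and Apbb3 (0.926), which fell to 0.818, 0.849 and 0.775 within groups. Closest to Cyp7a1 were Rab34 (0.838), Sema3f (0.823) and Slc13a5 (0.821), to Cyp27a1 5730403B10Rik and Dstn (0.905 each), to Slc10a1 Epas1 (0.886), to Baat Ormdl2 (0.898), to Slc27a5 Dcxr (0.879), to Cyp7b1 Mrps22 (0.861) and to Nr0b2 Srsf10 (0.854). The points share library, depth and group, and the largest of many correlations is high by selection.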

How the data were processed

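Whole livers of 15 mice, flash frozen and extracted with TRIzol, were sequenced as stranded mRNA libraries. The authors mapped single-end reads to mm9 with TopHat2 2.0.11 and counted them with HTSeq; the table holds their deposited raw counts, with no normalization, for 37991 Ensembl identifiers. The annotation and strand setting of the counting are not given in the sources used here. CASAVA and DESeq2 1.18.1 are also named in the submitters' processing notes. Counts assigned to genes summed to 21801754 to 38065359 per library, and counting error is small beside the spread between mice. Groups came from the sample labels, with 5 animals each. Symbols and positions came from the NCBIM37 annotation given (5 list entries matched through a RefSeq synonym, and 1, Mafg, was not matched).

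Genes were filtered by filterByExpr (minimum count 10), scaled by TMM and tested by edgeR 4.0.16 (R 4.3.3) with quasi-likelihood F-tests on all 15 libraries, with Benjamini-Hochberg adjustment over 14258 genes and a threshold of 0.05. CPM were TMM-scaled, and 0.5 counts were added before log2. Similar genes were the 3 non-members with the highest r among genes with a mean of at least 1 CPM. Ratios and correlations were tested by exact permutation or 100000 shuffles within groups (NumPy 2.4.6). DESeq2 1.42.0, limma 3.58.1 voom, other scalings, no filter, 10-library fits, a replicate block and leaving out each library were tried as alternatives, and scaling to hepatocyte markers was added after seeing the data. The testing steps were tested on simulated data. The members and lists were chosen with earlier results of these data known. Named genes were the members, the genes of the fixed lists that passed and the similar genes; partners of FXR that did not pass were named after their values were seen.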

Additional observations from a re-analysis of the deposited data

Results flagged for a closer look

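Of 39 groups of 5 values checked for a liver far from the others, 2 stood out, about the share that chance gives (1 in 20 groups). Slc10a1 was 489 CPM in old WT 7, a gap of 0.724 of the group's range from the nearest liver, where 0.710 is the limit for 5 values. Slc27a5 was 616 CPM in young WT 6, a gap of 0.786 of the range.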

How the results depend on the processing

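Cyp8b1 fell with age under each of the 23 alternative fits, with log2 fold changes from -1.74 to -1.01. With age the count of members that passed was 4, where 18.8% of all genes did. Scaled to hepatocyte markers it was 2, where 22.7% of all genes passed, and it was 2 to 5 when each library was left out. The value of 2 came without young WT 2 (1924 of 14380 genes passed) and without young WT 3 (2246 of 14383). Without young WT 6 it was 5, where 22.8% of all genes passed. Scaled to hepatocyte markers, Slc10a1 turned to 0.063 (edgeR adjusted p = 0.821), while all genes shifted by 0.40. For old KO against old WT the count was 0, where 0.533% of all genes passed, and 2 with DESeq2, which called 2.17% of all genes. It was 0 to 0 over the libraries left out, where 9 of 14405 to 108 of 14380 genes passed. For old KO against young WT it was 4, where 23.3% of all genes passed. It was 3 to 5 over the libraries left out, where 2460 of 14424 to 3829 of 14412 genes passed. When scaled to hepatocyte markers it was 2, where 5.74% of all genes passed. Over all genes, old KO against old WT called 76 with edgeR, 309 with DESeq2, 23 with limma voom and 6 with the replicate block. Deviations from the group mean had an r from -0.148 to 0.0635 between same-numbered animals and from -0.249 to 0.335 between differently numbered ones. The labels do not state what the numbers mark, so whether same-numbered animals shared a litter or day is not known. With a replicate block, 1 member passed with age, where 6.31% of all genes did. In that fit 8 of 10 members were higher in old KO than in old WT, and the Abcb11 difference of old KO from young WT was 0.51 (edgeR adjusted p = 0.104).

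Leaving out 1 library moved the log2 Abcb11/Slc10a1 difference between 0.74 and 0.95 with age and between 0.42 and 0.64 for old KO against young WT, passing only without young WT 6. The correlation of Nr1h4 with Nr0b2 ranged from -0.601 to -0.422, passing without old WT 4 (-0.573, adjusted permutation p = 0.0465). That of Cyp7a1 with Cyp8b1 ranged from 0.432 to 0.702, passing without old WT 4 (0.610), old KO 1 (0.683) or old KO 2 (0.702). The causes were not tested. With 5 livers a group, differences of the size of Cyp7a1's interval could not be resolved.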
